A study of Mus musculus with 24 samples.

Results

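The genes that flank Thbs1 on mouse chromosome 2 were examined for their RNA levels in bulk RNA from the anterior cingulate cortex, a frontal region of the cortex. The deposited table lists genes in genomic order, and the 100 rows before and the 100 rows after Thbs1 were taken. Of these 200 rows, 1 was left out by its symbol (Ndufaf1) and 33 because their mean over the 24 libraries was under 1 FPKM (a level of sequenced fragments scaled to transcript length and library depth). The remaining 166 genes, 86 before and 80 after Thbs1, are the members described here, out of 15232 genes in the table. All 166 lie on chromosome 2 in RefSeq's GRCm38.p6 annotation, in row order, over a stretch of 34.1 Mb. The members nearest the minimum from above were Accs at 1.03, Bambi-ps1 at 1.05 and Lcmt2 at 1.07 FPKM, and the rows nearest from below were Arhgap11a at 0.961, Spata5l1 at 0.893 and Cep152 at 0.864 FPKM.

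The study ran mice labelled wild type (WT) and mice labelled Thbs1/2 KO through an operant task in a Skinner box to examine effort. The table holds 3 arms of 8 libraries, each with 4 females and 4 males: untrained mice labelled WT, untrained mice labelled KO, and trained mice labelled KO. RNA was taken within 1 h of the end of behaviour, and trained animals were also food deprived, so training and food deprivation cannot be told apart. Each library is named for a different animal, and the animals' ages, their strain and the parts of the genes that the alleles remove were not given in the sources used here. Tissue was bulk, so fewer cells of a type and less RNA per cell cannot be told apart.

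Thbs1 encodes thrombospondin 1, an extracellular matrix protein that astrocytes secrete and that promotes the formation of synapses. Genes that sit near each other on a chromosome are inherited together, so a stretch around a targeted allele follows that allele through breeding, along with whatever sequence differences it carries. The members themselves have no shared function: they include synaptic adhesion proteins, kinases, membrane traffic proteins, mitochondrial enzymes and long non-coding RNAs. The strain origin of the stretch was not tested.

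Thbs1 itself (chr2:118111876-118127133, + strand, GRCm38.p6) went against the genotype labels. Its level was 0.254 FPKM at the lowest, 0.518 at the median and 0.716 at the highest in the 8 libraries labelled WT. In untrained libraries labelled KO it was 2.77, 3.51 and 5.04 FPKM, and in trained ones 3.62, 4.45 and 5.91 FPKM. Every library labelled KO lay above every library labelled WT, and the difference between the untrained arms was 1.62 on the log2(FPKM + 1) scale (two-sided exact permutation p = 0.000155, the smallest that 8 against 8 can give). Thbs2, on chromosome 17, was also higher, at 2.02 ± 0.294 FPKM (SD, n = 8) in libraries labelled WT and 3.51 ± 0.378 FPKM in untrained libraries labelled KO. Directions below are therefore between libraries labelled KO and libraries labelled WT, and not between known genotypes.

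Library depth, as whole reads recovered from the FPKM steps, ranged from 12314984 to 27156301 reads. The untrained male 3 labelled KO stood apart. Summed markers of cortical excitatory neurons were at 219 FPKM in it and at 550 to 683 FPKM in the other 7 libraries of its arm, while summed septal markers were at 72.0 against 11.7 to 12.8 FPKM and striatal markers at 335 against 54.0 to 226 FPKM. None of 41 cell type markers passed limma's test between the untrained arms, or limma-voom's, with 6 at an unadjusted p under 0.05. Of all 12572 genes tested, 179 passed limma's test and 1600 had an unadjusted p under 0.05. Results that rest on this library are given with and without it.

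In untrained mice, 29 of the 166 members (17.5%) differed between the libraries labelled KO and WT, 16 higher and 13 lower, at a limma adjusted p under 0.05. Of all 12572 genes tested, 1.42% did, 0.605% higher and 0.819% lower. The most changed member was Pla2g4e, a cytosolic phospholipase of the group IV family that also makes N-acyl phosphatidylethanolamines. It rose from 4.56 ± 0.583 to 16.5 ± 2.35 FPKM (SD, n = 8), and it was the only one of the 29 to change by 1 or more on the log2 scale. A further 5 changed by 0.5 or more: the non-coding RNA 2810002D19Rik and Cd59a fell, and Tcp11l1, the non-coding RNA D330050G23Rik and Bloc1s6 rose. Both that fell met the 1 FPKM minimum mainly by their level in libraries labelled WT. Means in the WT, untrained KO and trained KO arms were 2.10, 0.688 and 1.00 FPKM for 2810002D19Rik. For Cd59a they were 1.98, 0.850 and 0.970 FPKM. The median size of change over the 166 members was 0.08 on the log2 scale, beside 0.06 over all genes tested.

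The calls were spread unevenly on the 2 sides of Thbs1. Before Thbs1, 7 of 86 members (8.14%) passed, 3 higher and 4 lower, the outermost 77 rows away. After Thbs1, 22 of 80 (27.5%) passed, 13 higher and 9 lower, the outermost 87 rows away. In steps of 20 rows, the called members after Thbs1 were 4 of 12, 5 of 14, 6 of 18, 4 of 19 and 3 of 17, from near to far. Before Thbs1 the same steps held 1 of 15, 0 of 16, 3 of 18, 3 of 18 and 0 of 19. In bases, all 22 calls after Thbs1 fell among the 70 members within 5 Mb of it, and none among the 10 members from 5 to 10 Mb. Before Thbs1, 6 of the 7 lay more than 10 Mb away, among 58 members, and none of the 14 members between 5 and 10 Mb passed.

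**Figure D1:**
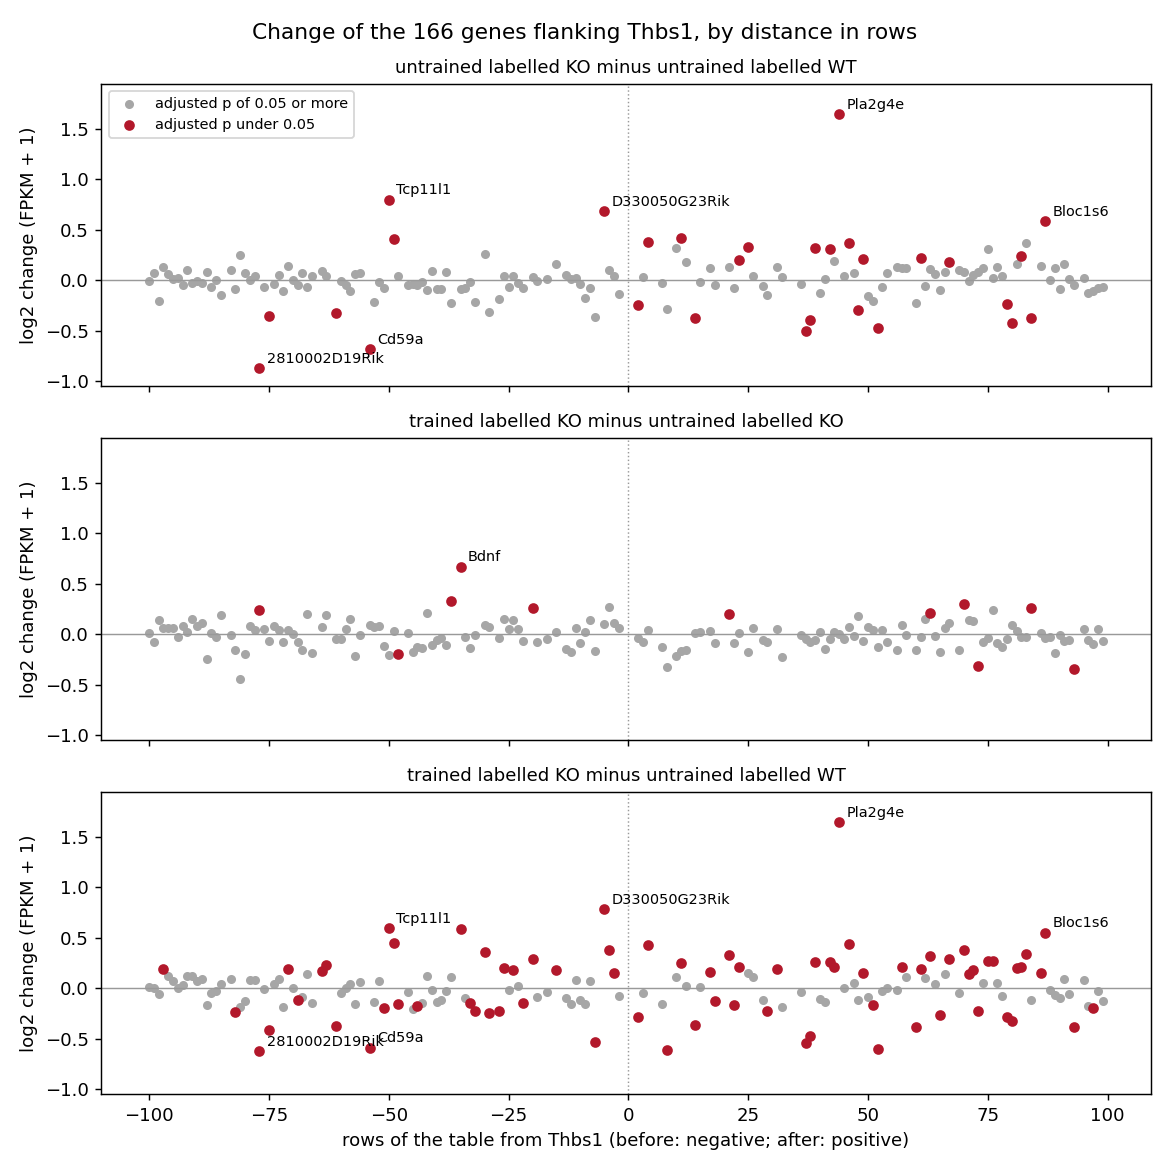
Difference on the log2(FPKM + 1) scale of each of the 166 members (vertical) against its distance from Thbs1 in rows (horizontal), 1 panel per comparison, with members at an adjusted p under 0.05 in red. In the top and bottom panels Pla2g4e stands far above the others, and more red points lie after Thbs1 than before it.

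Along the rest of chromosome 2, 13 of 830 genes (1.57%) were called, and off chromosome 2, 135 of 11573 (1.17%). Of the 43 calls on chromosome 2 other than Thbs1, 38 lay within 200 rows of it. The windows from 101 to 200 and from 201 to 300 rows after Thbs1 held 8 of 79 and 0 of 82 calls, and the window from 101 to 200 rows before it held 0 of 88. The genes that flank Thbs2 in the same way gave 18 calls of 147 (12.2%). These shares are given side by side, and no test was made between them.

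**Figure D2:**
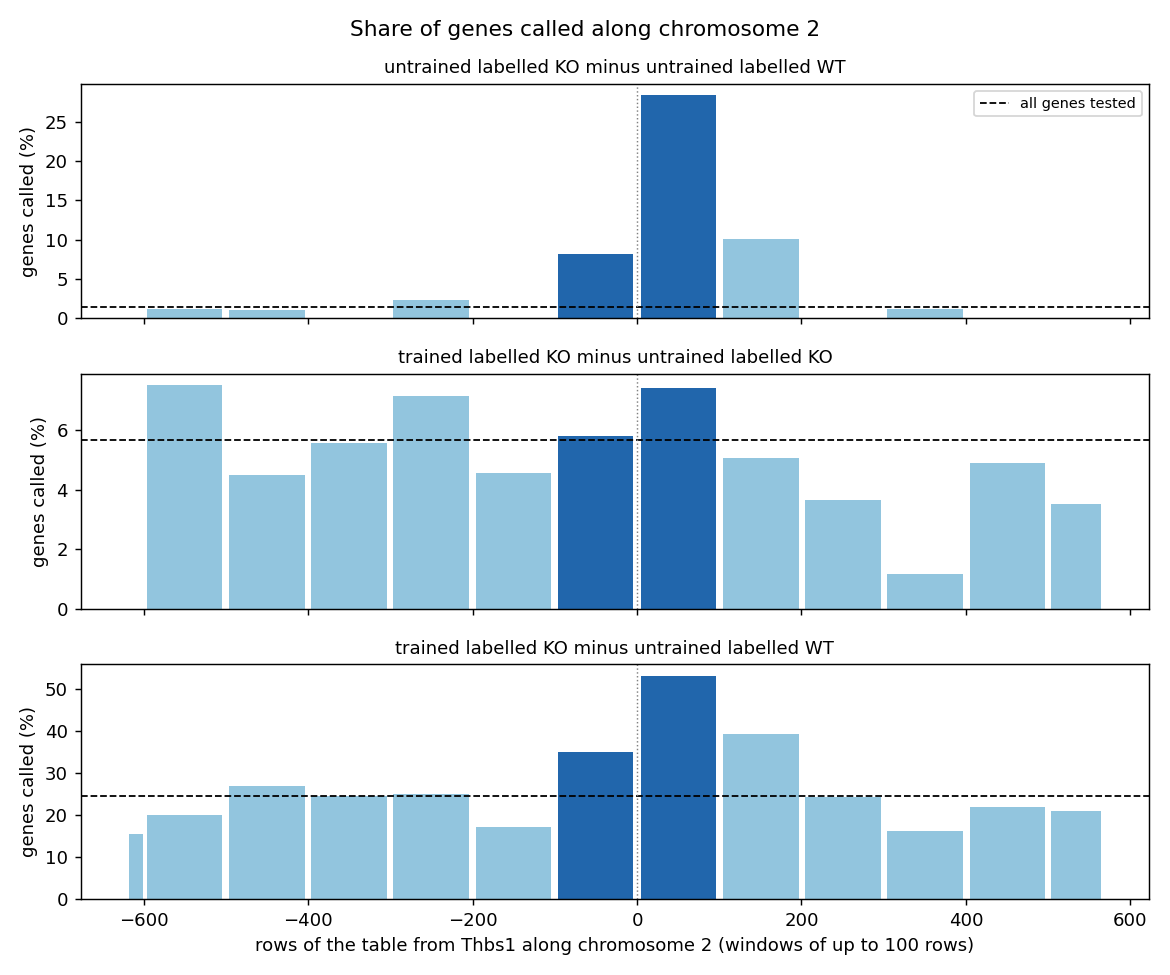
Share of tested genes called (vertical, percent) in windows of up to 100 rows along chromosome 2 (horizontal, rows from Thbs1), 1 panel per comparison, with the share over all genes tested as a dashed line. Dark bars are the windows next to Thbs1, the one after it with the left-out symbol Ndufaf1 counted. In the top panel only the windows from 100 rows before to 200 rows after Thbs1 rise above 3%.

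Promoters are shown for the 4 called members, 2 that rose and 2 that fell, whose single RefSeq entry lies outside the gene and holds no exon of any gene in GENCODE M21, so that the letters belong to a promoter alone. Each line gives the 250 bases before the start (RefSeq, GRCm38.p6), 5′ to 3′ on the gene's own strand, with CG pairs in capitals. D330050G23Rik (chr2:116899902-116900151, + strand) and Rpap1 (chr2:119787538-119787787, - strand) rose in libraries labelled KO. Itpka (chr2:119742087-119742336, + strand) and Lrrc4c (chr2:96317919-96318168, + strand) fell.
D330050G23Rik: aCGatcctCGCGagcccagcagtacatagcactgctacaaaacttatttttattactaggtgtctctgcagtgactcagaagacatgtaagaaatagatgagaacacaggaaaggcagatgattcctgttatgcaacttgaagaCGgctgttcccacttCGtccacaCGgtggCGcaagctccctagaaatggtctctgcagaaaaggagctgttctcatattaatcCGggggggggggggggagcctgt
Rpap1: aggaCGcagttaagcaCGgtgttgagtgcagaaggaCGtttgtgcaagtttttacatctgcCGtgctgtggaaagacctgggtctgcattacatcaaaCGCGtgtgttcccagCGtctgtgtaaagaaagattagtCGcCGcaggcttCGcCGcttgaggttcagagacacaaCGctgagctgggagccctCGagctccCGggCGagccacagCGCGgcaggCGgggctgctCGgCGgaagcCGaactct
Itpka: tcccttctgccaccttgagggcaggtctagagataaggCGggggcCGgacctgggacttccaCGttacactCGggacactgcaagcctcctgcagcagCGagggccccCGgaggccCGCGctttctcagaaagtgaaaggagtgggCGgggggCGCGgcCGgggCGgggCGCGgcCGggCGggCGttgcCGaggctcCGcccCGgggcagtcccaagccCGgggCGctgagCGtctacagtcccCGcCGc
Lrrc4c: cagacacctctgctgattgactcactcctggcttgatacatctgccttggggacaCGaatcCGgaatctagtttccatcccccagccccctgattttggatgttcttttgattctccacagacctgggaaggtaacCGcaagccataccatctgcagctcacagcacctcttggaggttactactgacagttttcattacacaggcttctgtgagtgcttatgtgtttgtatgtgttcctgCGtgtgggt
The stretches held 8 CG pairs for D330050G23Rik, 21 for Rpap1, 26 for Itpka and 4 for Lrrc4c (median 6 over all promoters and 15 over the members with an entry). Searched on both strands, the core promoter letters TATAAA, the letters CCAAT, and the E-box CACGTG were in none of the 4. The letters GGGCGG, a GC-rich element, were in Itpka, at 4 places. Over the 250 bases before the start of 27025 genes, TATAAA was in 13.0%, CCAAT in 34.5%, GGGCGG in 32.9% and CACGTG in 6.05%. Among the 145 members with a promoter entry, TATAAA was in 7, CCAAT in 49, GGGCGG in 85 (58.6%) and CACGTG in 6. Of the called members, 28 had an entry, and among these TATAAA was in 2, CCAAT in 6, GGGCGG in 13 (46.4%) and CACGTG in 1.

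By role, 79 of the members were put in 11 lists, written with earlier results of these data known, and 87 were in none. Lipid enzymes among the members were Pla2g4e and Lpcat4. Pla2g4e (chr2:120166412-120245630, - strand, 44 rows after Thbs1) was at 3.56 FPKM at the lowest, 4.64 at the median and 5.20 at the highest in untrained libraries labelled WT. In untrained libraries labelled KO it was at 11.1, 17.1 and 19.3 FPKM, and in trained ones at 14.9, 16.1 and 18.2 FPKM. No library labelled KO came near the range of those labelled WT. The lowest of the 16, at 11.1 FPKM, was the untrained male 3, low also in cortical neuron markers. The untrained difference was 1.64 ± 0.09 (SE) on the log2 scale (limma adjusted p = 5.77e-09), or a 3.61-fold ratio of mean FPKM. Without that library it was 1.72. Lpcat4, which remakes phosphatidylcholine, did not pass.

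Long non-coding RNAs gave a fall and a rise. 2810002D19Rik (chr2:94406707-94411682, + strand, 77 rows before Thbs1) was at 1.61, 2.02 and 2.75 FPKM at the lowest, median and highest of the untrained libraries labelled WT. It was at 0.558, 0.688 and 0.899 FPKM in untrained and 0.805, 0.960 and 1.24 FPKM in trained libraries labelled KO. The ranges did not overlap, and the untrained fall was by 0.87 ± 0.08 on the log2 scale (adjusted p = 2.51e-06). It overlaps Api5 and Ttc17 on the other strand. D330050G23Rik (chr2:116900152-116912791, + strand, 5 rows before Thbs1) was at 0.968, 1.13 and 1.45 FPKM in libraries labelled WT. It reached 1.71, 2.44 and 3.04 FPKM in untrained and 2.18, 2.75 and 2.95 FPKM in trained libraries labelled KO, again without overlap. Its rise was 0.68 ± 0.07 on the log2 scale (adjusted p = 2.26e-05).

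Membrane traffic proteins held 13 members, of which 3 rose and 1 fell, with a median difference of 0.14 on the log2 scale beside -0.0014 over all genes tested. Srp14, a subunit of the signal recognition particle that brings nascent secretory proteins to the endoplasmic reticulum, is 4 rows after Thbs1 (chr2:118475843-118479696, - strand). Its levels were 60.9, 63.7 and 68.4 FPKM at the lowest, median and highest of the libraries labelled WT. They were 76.3, 82.5 and 99.4 FPKM in untrained and 75.8, 85.9 and 101 FPKM in trained libraries labelled KO, with no overlap and a rise of 0.38 ± 0.05 (adjusted p = 0.000315). The Golgi protein Tmem87a rose by 0.37 (adjusted p = 0.000413) and the FYVE-domain protein Zfyve19 by 0.20 (adjusted p = 0.0438). Spg11, or spatacsin, which serves the renewal of lysosomes, fell from 4.59 ± 0.177 to 3.74 ± 0.167 FPKM (SD, n = 8), and its untrained ranges did not overlap. Bloc1s6, a subunit of the BLOC-1 complex for lysosome-related organelles, was placed in no list. It is the called member farthest after Thbs1 (chr2:122738505-122749487, + strand, 87 rows). Its levels were 6.50, 8.30 and 9.06 FPKM in libraries labelled WT against 11.5, 12.7 and 13.9 FPKM in untrained and 11.3, 12.2 and 13.8 FPKM in trained libraries labelled KO. It rose by 0.59 ± 0.06 (adjusted p = 2.06e-05) with no overlap.

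Kinases and signal adaptors held 12 members, of which 2 rose and 2 fell, with a median difference of 0.04. Itpka, the inositol trisphosphate 3-kinase of dendritic spines (chr2:119742337-119751253, + strand, 37 rows after), was at 80.3, 91.3 and 112 FPKM in libraries labelled WT. It was at 43.8, 67.7 and 75.4 FPKM in untrained and 47.8, 61.3 and 77.7 FPKM in trained libraries labelled KO. All 16 lay below all 8, and the untrained fall was by 0.50 ± 0.09 (adjusted p = 0.0102). The lowest value was the untrained male 3, and without it the difference was -0.41 (adjusted p = 0.00018). The receptor tyrosine kinase Ltk, next to Itpka on the other strand, fell by 0.40 (adjusted p = 0.0262), with overlapping ranges. Mapkbp1, a scaffold of JNK signalling, rose from 10.9 ± 0.615 to 13.8 ± 1.08 FPKM without overlap, and the small GTPase Rhov rose by 0.33 (adjusted p = 0.0241). Shf, an adaptor with an SH2 domain that stood in no list, rose by 0.24 (adjusted p = 0.0418).

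The secreted and surface list held 4 members, counting Pdia3 of the endoplasmic reticulum, and 1 fell (B2m). Of 7 receptors, channels and transporters 1 fell (Gpr176), with no rise called in either list. B2m, the light chain of MHC class I molecules (chr2:122147687-122153082, + strand, 80 rows after), was at 64.5, 71.7 and 79.5 FPKM in libraries labelled WT. It was at 44.7, 54.3 and 66.9 FPKM in untrained and 55.0, 57.7 and 62.5 FPKM in trained libraries labelled KO. The untrained ranges overlapped by 1 library labelled KO at 66.9 FPKM, and B2m fell by 0.42 ± 0.07 (adjusted p = 0.0023). Cd59a and Lrrc4c stood in neither list. Cd59a, a membrane-anchored inhibitor of complement (54 rows before), was at 1.40, 2.07 and 2.61 FPKM in libraries labelled WT against 0.557, 0.901 and 1.06 FPKM in untrained and 0.828, 0.996 and 1.13 FPKM in trained libraries labelled KO. It fell by 0.68 ± 0.09 (adjusted p = 0.000172), and its reads are uncertain because its paralog Cd59b is the row before it. Lrrc4c, the netrin-G ligand at synapses (75 rows before), fell from 39.5 ± 3.02 to 30.8 ± 3.17 FPKM without overlap. Its lowest value, 23.7 FPKM, was again the untrained male 3, and without it the difference was -0.31 in place of -0.35. The orphan receptor Gpr176, 2 rows after Thbs1, fell by 0.25 (adjusted p = 0.0303).

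Metabolic enzymes held 8 members, of which 2 rose and 2 fell, with a median difference of 0.04. Ivd, which breaks down a leucine product in mitochondria, was at 21.3, 27.1 and 29.9 FPKM in libraries labelled WT, at 17.5, 19.8 and 25.9 FPKM in untrained and at 18.3, 19.7 and 23.8 FPKM in trained libraries labelled KO. The ranges overlapped, and it fell by 0.37 ± 0.06 (adjusted p = 0.0012). Gatm, the first enzyme of creatine synthesis, fell from 47.8 ± 5.53 to 36.5 ± 3.25 FPKM (SD, n = 8), by 0.38 ± 0.06 (adjusted p = 0.00256). The mitochondrial creatine kinase Ckmt1 rose by 0.18 (adjusted p = 0.0423), and the deaminase Adal by 0.22 (adjusted p = 0.0418). Cat, or catalase, which breaks down hydrogen peroxide and stood in no list, fell from 20.5 ± 1.79 to 16.2 ± 0.608 FPKM without overlap (adjusted p = 0.0012).

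Among 9 transcription and chromatin members, the zinc finger protein Zfp106 rose by 0.21 (adjusted p = 0.015) and Rpap1, which binds RNA polymerase II, by 0.32 (adjusted p = 0.00112). The list of cell division, centrosome and DNA repair held 6 members. Of these, Haus2, an augmin subunit that seeds spindle microtubules, was at 7.94, 9.17 and 10.3 FPKM in libraries labelled WT. It was at 5.04, 6.24 and 7.41 FPKM in untrained and 4.94, 5.60 and 6.56 FPKM in trained libraries labelled KO. The ranges did not overlap, and Haus2 fell by 0.48 ± 0.06 (adjusted p = 8.94e-05). The protease Capn3, 1 of 4 members in the proteolysis and folding list, which also counts Rmdn3, fell by 0.30 (adjusted p = 0.018). None of 10 RNA processing and translation members and none of 4 cytoskeletal members passed by limma or limma-voom, with 3 and 1 at an unadjusted p under 0.05. Such a p was found for 61 of the 166 members and for 1600 of all 12572 genes tested.

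The other calls were of genes with less settled roles. Tcp11l1 (chr2:104667242-104712169, - strand, 50 rows before) was at 4.95, 5.61 and 6.62 FPKM in libraries labelled WT and at 8.50, 10.8 and 12.8 FPKM in untrained libraries labelled KO. In trained libraries labelled KO it was at 4.91, 10.8 and 11.3 FPKM. The untrained ranges were apart, with a rise of 0.80 ± 0.08 (adjusted p = 6.4e-06), but the trained male 3 lay just under the lowest library labelled WT. Tcp11l1 overlaps Cstf3 on the other strand. Its neighbour Depdc7 rose by 0.41 (adjusted p = 0.0054). Depdc7 had a mean of 0.714 FPKM in libraries labelled WT, so it met the 1 FPKM minimum only by its level in libraries labelled KO. A430105I19Rik, which RefSeq lists as Ccdc9b, rose from 1.54 ± 0.135 to 2.39 ± 0.203 FPKM without overlap of the untrained ranges. Of the 29 called members, 13 overlap a gene on the other strand in the GENCODE M21 annotation, and whether the authors' counting used strand is not given in the sources used here, so their reads could be shared.

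Ranges of the 8 untrained libraries of each label were apart for 16 members, all among the 29, where 0.501% of all genes tested had ranges apart. When all 16 libraries labelled KO were set against the 8 labelled WT, 13 members were apart, 6 higher and 7 lower, where 0.374% of all genes tested were apart in this way. All 29 had the same sign in females and in males. These are the libraries that called the 29, so the shared sign is not separate evidence. No member passed a test of the label difference by sex in limma, with 11 at an unadjusted p under 0.05. None of all 12572 genes tested passed it either, with 394 at such a p, so this is not particular to the members.

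**Figure D3:**
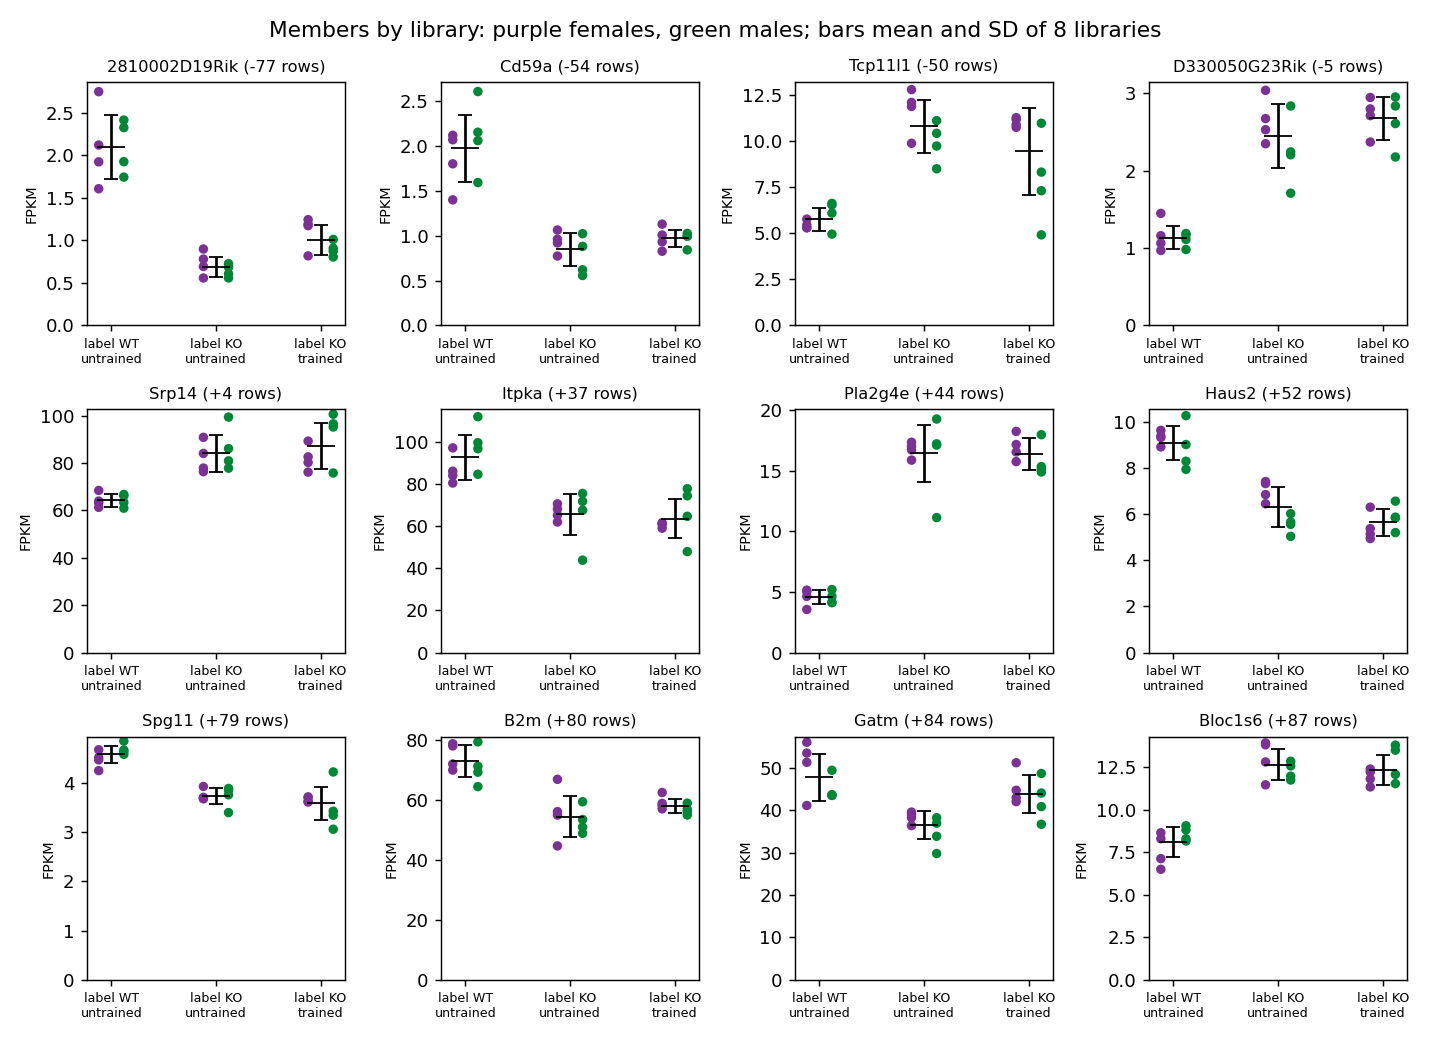
Level in FPKM (vertical, from 0) of 12 called members in each library of the 3 arms (horizontal), females in purple and males in green, with the mean and SD of 8 libraries in black. Pla2g4e has no overlap between the labels, while 1 trained male lies low for Tcp11l1 and the trained libraries lie between the untrained arms for Gatm.

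The most changed member, Pla2g4e, was not among the 5 members nearest to Thbs1 on either side. Of the 5 nearest on each side, D330050G23Rik, Gpr176 and Srp14 were called, and D330050G23Rik was 1 of the 6 called members that changed by 0.5 or more. Rasgrp1, an activator of Ras that sits 2 rows before Thbs1, was at 140 to 166 FPKM in libraries labelled WT and 90.4 to 166 FPKM in untrained libraries labelled KO (difference -0.13, 95% interval -0.30 to 0.03). Without the untrained male 3 labelled KO, which had the lowest value, it was -0.06. Fam98b, 3 rows before, differed by 0.04 (-0.04 to 0.12), and Spred1, an inhibitor of Ras signalling, by 0.11 (-0.14 to 0.35), or by 0.18 without that male. The kinase Eif2ak4, which senses lack of amino acids, differed by 0.04 (-0.05 to 0.13) and by 0.02 without it, and the kinase Pak6 by -0.03 (-0.13 to 0.07).

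Meis2, a homeobox transcription factor 7 rows before, and Ankrd63, 8 rows after, turned on the untrained male 3 labelled KO. Meis2 was at 22.1, 24.7 and 29.1 FPKM in libraries labelled WT and at 15.3, 16.8 and 42.1 FPKM in untrained libraries labelled KO, the highest being that male. The difference was -0.37 (adjusted p = 0.30) with it and -0.52 (adjusted p = 0.00013) without it. Ankrd63 was at 22.8 FPKM in that male and had a median of 2.59 FPKM in its arm, against 3.73, 4.58 and 7.59 FPKM in libraries labelled WT. Its difference was -0.29 (adjusted p = 0.774) with that male and -0.61 (adjusted p = 0.0253) without it. Septal and striatal markers were high in the same library, and their part in these values was not tested. Without that library all 29 calls remained and 9 members were added, 6 higher and 3 lower, for 38 in all, while the calls over all genes went from 179 to 340 (2.70%).

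**Figure D4:**
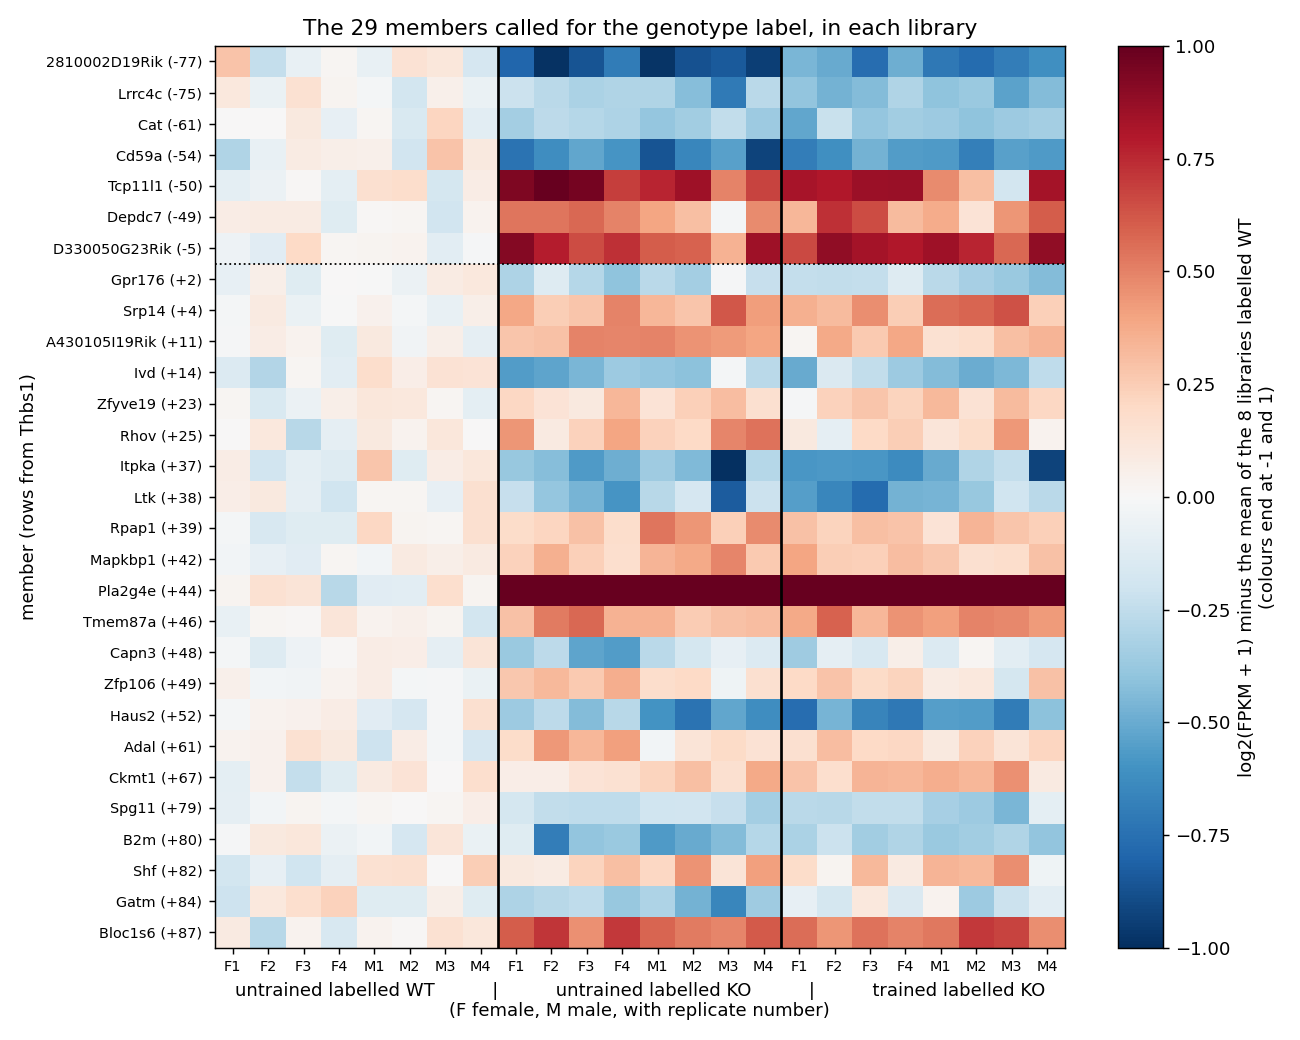
Each called member (rows of the plot, in order of distance from Thbs1) in each of the 24 libraries (columns, by arm and sex), coloured by log2(FPKM + 1) minus the mean of the 8 libraries labelled WT, with colours ending at -1 and 1. Most members keep their colour across both arms labelled KO, and Gatm, Capn3 and Rhov fade in the trained libraries.

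Trained libraries took no part in the test that called the 29, though they count in the mean that sets the 1 FPKM minimum. For each member, a trained library was counted as on the KO side where it lay nearer to the mean of the untrained libraries labelled KO than to that of those labelled WT, on the log2 scale. This held for 197 of the 232 pairs of member and library, and for all 8 trained libraries in 13 members. It held in 2 of 8 for Gatm, in 3 of 8 for Capn3 and in 4 of 8 for Rhov. Of the 8 trained libraries, the fewest members on the KO side were 22 of 29, in male 1, and the most were 28 of 29, in female 3. The means that set the sides come from the untrained libraries that called the 29. Members of the same stretch in the same 8 animals are not separate observations. The like share over other called genes was not computed.

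Between trained and untrained mice labelled KO, 11 of 166 members (6.63%) passed, 8 higher and 3 lower. Of all genes tested, 5.67% did, 3.5% higher and 2.17% lower, so the members' share was near the background. All 8 trained animals carry numbers over 1000 in the labels, as do 2 of the untrained animals labelled KO. With that number, over or under 1000, as a covariate no member passed (18 at an unadjusted p under 0.05 by limma). In that model none of all 12572 genes tested passed either, so this is not particular to the members. Leaving out any of the 4 trained females, trained male 1, or untrained female 1 or 4 labelled KO left 5 to 7 calls. Of all genes tested, 2.62% to 3.85% were then called. Over the 29 members called for the label, the training differences had a median size of 0.06 on the log2 scale, with a median 95% interval of 0.13 to either side.

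Bdnf, the neurotrophin that neuronal activity raises, had the largest rise with training among the called members. It was at 1.73, 4.87 and 5.66 FPKM in untrained and 6.10, 7.08 and 8.53 FPKM in trained libraries labelled KO. The rise was 0.67 ± 0.15 (limma adjusted p = 0.0187). The lowest value was the untrained male 3 labelled KO, and without that male the rise was 0.54. The ranges did not overlap, and the libraries labelled WT, at 3.07 to 5.29 FPKM, lay with the untrained. Pdia3, a disulfide isomerase of the endoplasmic reticulum, rose from 63.8 ± 5.52 to 78.4 ± 4.91 FPKM (adjusted p = 0.00186), also without overlap. Mettl15, a methyltransferase of the mitochondrial ribosome, rose by 0.33 (adjusted p = 0.0111). Aven, an inhibitor of apoptosis, rose by 0.26, the mitochondrial tether Rmdn3 by 0.20 and Tubgcp4 of the gamma-tubulin complex by 0.21. The falls were Fbn1, which encodes the matrix protein fibrillin 1, by 0.34, the splicing factor Mfap1b by 0.31 and Qser1 by 0.20. Fbn1 was under 1 FPKM in every trained library, so it met the minimum by the other arms. Mfap1b reads are uncertain because of its near-identical copy Mfap1a.

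Gatm and 2810002D19Rik were called in both comparisons that use the untrained libraries labelled KO. Each fell with the label and rose with training, by 0.26 (adjusted p = 0.0246) and 0.25 (adjusted p = 0.0294). The comparisons share those 8 libraries. In trained libraries Gatm was at 43.9 ± 4.51 FPKM, and its difference from libraries labelled WT was -0.12 (95% interval -0.26 to 0.02).

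Between trained libraries labelled KO and untrained libraries labelled WT, where label and training change together, 73 of 166 members (44.0%) passed, 41 higher and 32 lower. Of all genes tested, 24.5% did, 12.9% higher and 11.5% lower. With an equal sum of FPKM in every library there were 78 calls, 35 higher and 43 lower, beside 25.5% of all genes tested. Median-ratio size factors gave 42 higher and 32 lower, quantile normalization 39 and 32, and limma-voom 42 and 30. Under these 23.7% to 24.8% of all genes tested were called. The balance of directions thus turned with the equal sum and not with the other scalings named. Before Thbs1 30 of 86 passed, and after it 43 of 80, beside 195 of 830 (23.5%) on the rest of chromosome 2. Of the 29 members called between the untrained arms, 26 were called here too. The other 3 were Rhov, Capn3 and Gatm. This comparison shares its libraries labelled WT with the first and its trained libraries with the second.

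Of the members called here and not between the untrained arms, the 15 with the largest differences are given. Bdnf differed by 0.59 (adjusted p = 0.000223), Meis2 by -0.53 (adjusted p = 7.76e-05), and Ankrd63 by -0.61 (adjusted p = 0.00139). The untrained male 3 labelled KO takes no part in this comparison. Map1a, which binds microtubules in neurons, fell from 179 ± 13.5 to 149 ± 19.6 FPKM, Fbn1 fell by 0.39 and Lcmt2, a tRNA-modifying enzyme, by 0.38. Pdia3 rose by 0.38, Spred1 by 0.37, Fibin by 0.36, Bambi-ps1 by 0.34, Rmdn3 by 0.33 and Tubgcp4 by 0.32. Aven rose by 0.29, and Wdr76 and Frmd5 by 0.27 each. Bambi-ps1 is a pseudogene, so its reads may come from its parent gene. In libraries labelled WT, Fibin ranged from 0.760 to 1.09 FPKM and Bambi-ps1 from 0.324 to 1.29 FPKM, each with a mean under 1 FPKM. Both therefore met the 1 FPKM minimum only by their level in libraries labelled KO. Fbn1 and Lcmt2 were under 1 FPKM in every trained library, so both met the minimum by the other arms. Of the 13 membrane traffic members 9 passed here, 7 higher and 2 lower, and of the 10 RNA processing and translation members 6 passed, 3 higher and 3 lower. Other lists gave 2 of 2 (lipid), 3 of 4 (secreted and surface), 4 of 6 (cell division, centrosome and DNA repair) and 4 of 8 (metabolic). The rest gave 2 of 4 (proteolysis and folding), 2 of 4 (cytoskeletal), 4 of 9 (transcription and chromatin), 4 of 12 (kinases) and 2 of 7 (receptors). Over all members 44.0% passed and over all genes tested 24.5%. No test of the lists as sets was made.

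Of the 33 rows under the 1 FPKM minimum, 6 passed between the untrained arms when no minimum was set, 2 higher and 4 lower, beside 1.37% of all 15232 genes. Bub1b, a kinase of the spindle checkpoint that sits 6 rows after Thbs1, ranged from 0.666 to 1.59 FPKM in libraries labelled WT. It ranged from 0.0187 to 0.218 FPKM in untrained and from 0.0444 to 0.169 FPKM in trained libraries labelled KO. All 16 lay below all 8, with a fall by 0.91 on the log2(FPKM + 1) scale (adjusted p = 1.09e-05), a scale that understates the change of low genes. Tmco5 fell by 0.72, Cd59b by 0.56 and the transglutaminase Tgm7 by 0.32, while Exd1 rose by 0.52 and Gm13986, the row before Thbs1, by 0.17. Gm13986 and Tgm7 were at very low levels. Their means were 0.00433 and 0.279 FPKM in libraries labelled WT and 0.131 and 0.0231 FPKM in untrained libraries labelled KO. The left-out symbol Ndufaf1, an assembly factor of respiratory complex I 35 rows after Thbs1, fell from 11.7 ± 1.00 to 9.42 ± 0.774 FPKM (adjusted p = 0.00754).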

How the data were processed

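Bulk RNA of 24 animals was sequenced from stranded, poly(A)-selected libraries. Per the submitters' processing notes, FastQC 0.11.7, Trimmomatic 0.38, STAR 2.5.3a, featureCounts of Subread 1.6.3 and the mm10 build were used. The deposited values are FPKM per gene, computed by the authors. The program for FPKM, the annotation and the strand setting are not given in the sources used here. The members and lists were chosen with earlier results of these data known.

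Tests used limma 3.58.1 in R 4.3.3 on log2(FPKM + 1), with the libraries of the 2 arms compared, sex as a covariate, a mean-variance trend and a minimum mean of 1 FPKM (12572 genes). P-values were Benjamini-Hochberg adjusted over all genes tested, with a threshold of 0.05, and measure the spread between animals with 1 library each. FPKM steps gave whole reads (within 0.01 read, or 0.25 for the highest genes) for 99.98% of values, and limma-voom on them is an alternative with 28 of 166 members called for the label. Tested on simulated data for the untrained arms (12572 genes), the fit recovered 191 of 200 genes changed by 1 on the log2 scale, with 8 other calls. Only 1 of the 29 called members changed by that much, so this gives no recovery rate for smaller changes.

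The text names every member called between the untrained arms, the 5 nearest on each side, up to 15 others called in each other comparison and the outermost called members. Promoter letters were searched in Python 3.11.15.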

Additional observations from a re-analysis of the deposited data

Results flagged for a closer look

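For the named members, 153 groups of 8 libraries were screened for a library far from the other 7 of its arm, and 9 were found. Chance alone gives about 1 in 20, or 7.7. Of the 9, 6 were the untrained male 3 labelled KO, which also had the lowest cortical neuron markers of its arm (219 FPKM). It was low for Lrrc4c at 23.7 FPKM, Itpka at 43.8 FPKM, Pla2g4e at 11.1 FPKM and Frmd5 at 5.87 FPKM. It was high for Meis2 at 42.1 FPKM and Ankrd63 at 22.8 FPKM. The 3 others were Aven at 6.20 FPKM in the untrained male 4 labelled KO, Rmdn3 at 20.3 FPKM in the untrained male 2 labelled KO and D330050G23Rik at 1.45 FPKM in the untrained female 3 labelled WT.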

How the results depend on the processing

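For the label in untrained mice, 29 members were called. Over other choices of scaling, minimum, pseudocount, model and weights the count was 20 to 36, and every one of the 29 that was tested kept its sign. The 20 were of 117 members tested at a 5 FPKM minimum. Of all genes tested, 0.780% to 2.36% were called under these choices. Leaving out 1 library gave 22 to 38, beside 0.915% to 2.70% of all genes tested. Chosen after seeing the data, females alone gave 16 calls and males alone 3, beside 0.628% and 0.135% of all genes tested. For training (11 calls), a 5 FPKM minimum gave 6 of 117 members tested, beside 6.58% of all genes tested. Array weights gave 27 (16.3%), beside 16.1% of all genes. Females alone gave 23 (13.9%), beside 15.7% of all genes. The animal number as a covariate gave 0 and males alone gave 0, as over all genes tested. Leaving out 1 library gave 5 to 15, beside 2.62% to 7.52% of all genes tested. For trained libraries labelled KO against libraries labelled WT (73 calls), males alone gave 16, beside 1.46% of all genes tested. Leaving out 1 library there gave 58 to 76, beside 18.8% to 27.2% of all genes tested. Same-numbered libraries did not deviate together as a whole. Correlations ranged from -0.29 to 0.36 for the label, -0.20 to 0.10 for training and -0.27 to 0.01 for the last comparison. This check looks at expression only and cannot tell whether the animals were paired in the design. With the number within sex as a replicate block, the calls were 23, 0 and 45, beside 0.907%, 0.231% and 12.8% of all genes tested. The last 2 came from 14 libraries, since a trained female has no number and was left out with its counterpart. In these the block and the smaller number of libraries act together. Among the named members, 3 uncalled label differences changed sign: Spred1 at -0.000696 and Ankrd63 at 0.18 in males alone, and Pak6 at 0.0012 without the untrained male 4 labelled WT (from -0.055 to 0.0012 with 1 library left out). The cause of these shifts was not tested. Males or females alone have fewer samples. Thbs1 stayed higher in libraries labelled KO in every alternative run. Levels near 1 FPKM rest on few reads.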
